A study of Rattus norvegicus with 9 samples.

Results

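The genes described here are 39 genes of the unfolded protein response and the integrated stress response, matched by symbol among the 38490 genes listed in 9 RNA-seq libraries of RBL-2H3 cells. RBL-2H3 is a rat basophilic leukemia line that carries the high-affinity IgE receptor and is widely used as a model of mast cells. Of the 39 genes, 38 have values, since Vldlr was left blank in every library, as were 20484 genes in all. Nupr1, a small stress-induced protein, stayed between 0 and 0.11 FPKM (fragments scaled by transcript length and by mapped reads) and was not tested. The other 37 were at or above 1 FPKM in all 9 libraries and were tested in every comparison. They were taken as 17 genes of the ATF4 and amino acid group, 15 of the XBP1 and ER chaperone group, and 5 sensors and regulators.

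Each of 3 groups holds 3 libraries. The Ctrl cells are labelled as untreated, although a protocol text shared by all libraries describes sensitization, so whether they received IgE is not settled by the labels. For the IgE/DNP cells, 12 h of sensitization with anti-DNP IgE at 50 ng/mL preceded 4 h of challenge with DNP-HSA at 100 ng/mL, the antigen that cross-links receptor-bound IgE. The PF cells received the same sensitization and antigen, with a 1 h pretreatment by an agent that the labels call PF and do not define. Their treatment labels give 4, 5 and 6 h of stimulation for replicates 1, 2 and 3, whereas the protocol text gives 4 h. All libraries come from the same cell line, and no label says that replicates were separate cultures, so p-values measure the spread between these libraries, which may be technical. With bulk RNA, fewer cells expressing a gene and less RNA of it per cell cannot be told apart.

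The integrated stress response begins with kinases that phosphorylate the translation factor eIF2alpha, among them PERK (Eif2ak3) at the endoplasmic reticulum (ER) and GCN2 (Eif2ak4) on amino acid shortage. General translation then drops while the mRNA of the transcription factor ATF4 is translated more, and ATF4 raises genes of amino acid synthesis and transport together with CHOP (Ddit3) and its partners. Unfolded protein in the ER also activates IRE1alpha (Ern1), which splices Xbp1 mRNA, and ATF6, whose cleaved form enters the nucleus. XBP1 and ATF6 raise chaperones, oxidoreductases and degradation factors of the ER, a compartment that mast cells use heavily to make granule proteases and cytokines. Gene-level values count Xbp1 mRNA in all its forms and show neither its splicing nor the translation of Atf4.

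Sequence elements described for these arms were searched for in the promoters, and the matches are set beside the results below. RefSeq windows on build GRCr8 were held for 35 of the 39 genes, and the 250 bases before the start site were searched on both strands. The ER stress element (ERSE, CCAAT followed after 9 bases of any kind by CCACG), bound by ATF6 and XBP1 with NF-Y, was found in 7 of 13 promoters of the XBP1 group, namely Hspa5, Hsp90b1, Calr, Canx, Dnajc3, Creld2 and Xbp1, and in 0 of 19 of the ATF4 group. It occurred in 0.0765% of the 27457 genes searched. The C/EBP-ATF composite element read as TGATGNAA (CARE) was found in 4 of 19 ATF4-group promoters, namely Chac1, Trib3, Slc7a1 and Nupr1, against 3.58% of all genes. Outside that group it occurred in Herpud1 and Ppp1r15b. Herpud1 also held ERSE-II, which is ATTGG, any 1 base and CCACG, and which 0.051% of genes hold. The unfolded protein response element TGACGTGG was in 0 of the 35 windows and in 0.594% of all. A match describes letters in a window and is not evidence of binding. Capitals mark the element, which for Hsp90b1, Chac1 and Trib3 reads on the opposite strand.
Hspa5 ERSE (chr3:38452958-38453006, + strand): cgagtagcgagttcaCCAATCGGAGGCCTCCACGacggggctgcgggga
Hsp90b1 ERSE (chr7:23012332-23012380, - strand): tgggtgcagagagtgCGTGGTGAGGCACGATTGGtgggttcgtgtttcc
Dnajc3 ERSE (chr15:102432519-102432567, + strand): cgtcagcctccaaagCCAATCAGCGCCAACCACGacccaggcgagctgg
Xbp1 ERSE (chr14:84604543-84604591, + strand): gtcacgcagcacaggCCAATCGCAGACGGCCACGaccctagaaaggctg
Herpud1 ERSE-II (chr19:10614806-10614846, - strand): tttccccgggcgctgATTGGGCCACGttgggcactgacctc
Chac1 CARE (chr3:126795949-126795986, + strand): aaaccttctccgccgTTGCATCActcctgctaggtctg
Trib3 CARE (chr3:161275534-161275569, - strand): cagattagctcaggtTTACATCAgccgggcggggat
Slc7a1 CARE (chr12:11664443-11664480, + strand): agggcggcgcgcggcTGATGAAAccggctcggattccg

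The sums of the deposited values lay between 573023 and 630069 FPKM, and were higher in the 3 PF libraries, from 610206 to 630069, than in the other 6, from 573023 to 591539. Relative depth read from the steps of low values was between 0.986 and 1.02. Each of the 9 libraries was nearest to a library of its own group. Of 10 mast cell and basophil markers, 9 had values, the lowest at 53.0 FPKM. Of 14 markers of other cell types, 13 never passed 1.65 FPKM, and the T cell receptor subunit Cd3e lay between 6.74 and 9.52 FPKM. The summed level of these 14 was 10.6 to 13 FPKM in Ctrl, 9.75 to 12.5 in IgE/DNP and 11.2 to 13.2 in PF, ranges that overlap.

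The first comparison asks which stress response genes differed between IgE/DNP and Ctrl, a difference written below as with antigen. Whether Ctrl cells received IgE is not settled, so sensitization and antigen cannot be told apart in it. In IgE/DNP against Ctrl, 16 of 37 genes passed the test (adjusted p at most 0.05, limma with Benjamini-Hochberg adjustment over all 10392 genes tested), which is 43.2% against 29.2% of all genes. Of these, 12 were lower, where 14.4% of all genes were lower, and 4 were higher, where 14.7% were. The ATF4 group held 8 of the lower genes and 1 higher gene among 17. The XBP1 group held 2 lower genes and 0 higher among 15, and 0 of its 11 ER folding genes passed. Among these, Dnajb9 (0.26 to 0.28) passed without Ctrl replicate 1 or IgE/DNP replicate 2, and also with a replicate block (adjusted p = 0.0224, limma), with all 3 groups in a single fit (0.0382) and with scaling to the mean sum (0.0469). Likewise Sdf2l1 (-0.16) passed without Ctrl replicate 3 and Canx (0.12) without Ctrl replicate 1. The median log2 fold change, on the log2(FPKM + 1) scale used throughout, which understates the change of low genes, was -0.10 in the ATF4 group, -0.033 in the XBP1 group and -0.0081 over all genes tested.

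**Figure D1:**
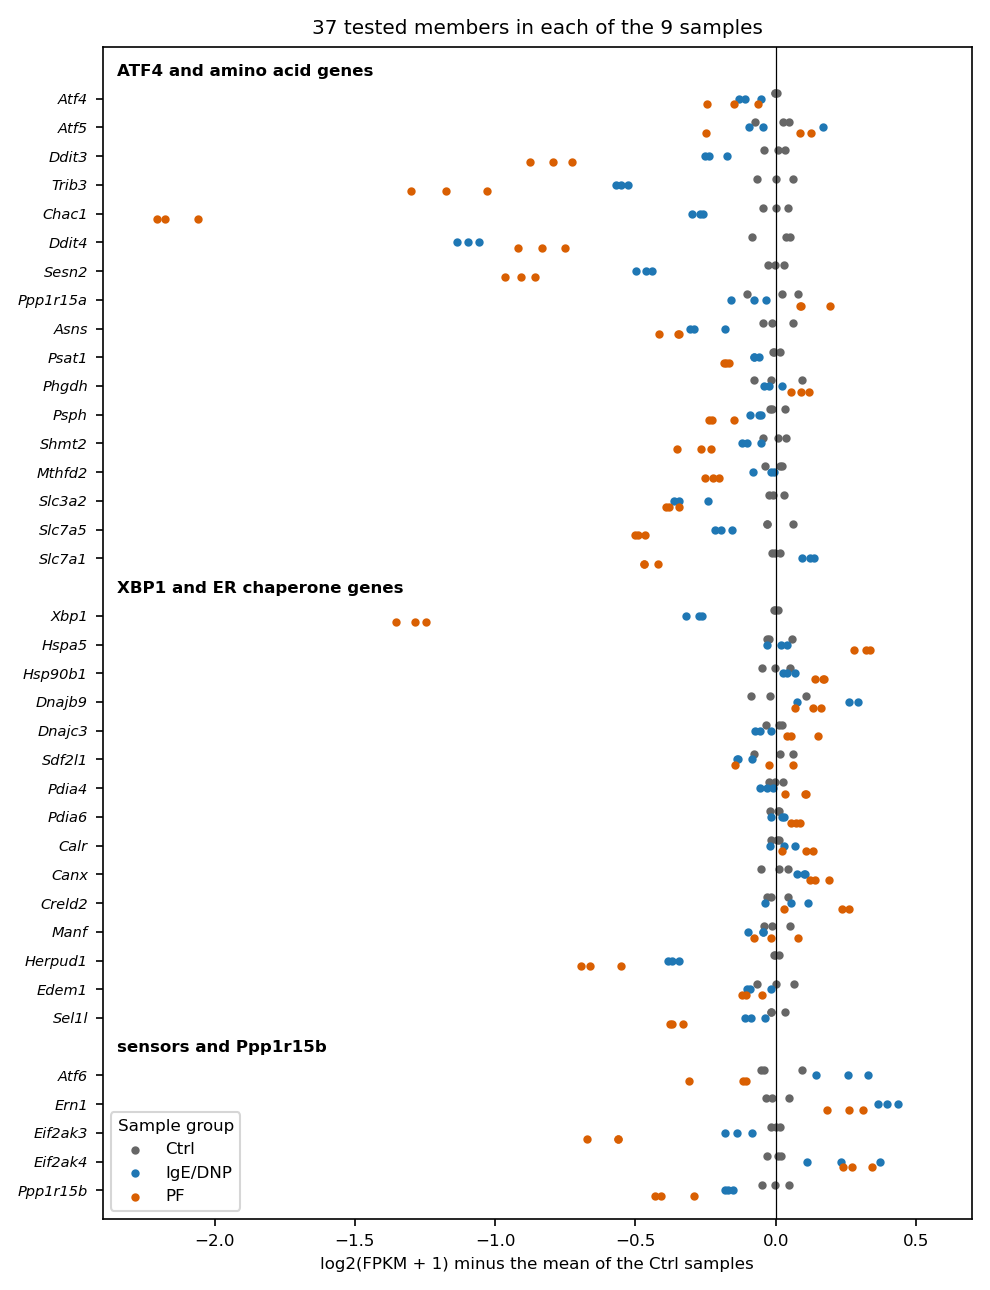
Each of the 37 tested genes (rows) in the 9 libraries, with a point per library at its log2(FPKM + 1) minus the mean of the 3 Ctrl libraries (x axis), coloured by group. The PF points of Chac1 and Xbp1 lie farther to the left than any IgE/DNP point, and those of the ER folding genes Hspa5 and Hsp90b1 lie to the right of both other groups.

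Ddit4, an inhibitor of mTORC1 signalling, differed most among the 37 genes in this comparison. It stood at 49.6, 54.0 and 54.6 FPKM in the Ctrl libraries, at 23.4, 24.8 and 24.1 FPKM in IgE/DNP and at 30.9, 29.1 and 27.4 FPKM in PF. The 3 groups did not overlap, and the lowest values were those of IgE/DNP. The log2 fold change of IgE/DNP over Ctrl was -1.10 ± 0.0475 (SE, adjusted p = 3.34e-06, limma), the 9th lowest of the 10392 genes. PF over IgE/DNP, which shares the IgE/DNP libraries, was 0.26 ± 0.0512 (adjusted p = 2.72e-03, limma), so PF levels lay between the other groups and stayed lower than Ctrl by 0.83 on the log2 scale, a fall of 44.7% in the mean.

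Trib3, a pseudokinase that ATF4 and CHOP induce and that feeds back on ATF4, had 23.8, 26.1 and 24.98 FPKM in Ctrl, 16.7, 17.0 and 16.5 FPKM in IgE/DNP, and 11.7, 9.53 and 10.5 FPKM in PF. Values stepped down from group to group with no overlap. The log2 fold change was -0.55 ± 0.047 for IgE/DNP over Ctrl (adjusted p = 1.81e-04, limma) and -0.62 ± 0.070 for PF over IgE/DNP (adjusted p = 1.28e-04, limma). Sesn2, a leucine-binding inhibitor of mTORC1, showed the same order. Its values were 89.2, 87.1 and 85.6 FPKM in Ctrl, 64.1, 63.1 and 61.5 FPKM in IgE/DNP, and 47.7, 44.2 and 46.0 FPKM in PF, and the log2 fold changes of these 2 steps were -0.47 and -0.44. Its groups did not overlap.

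Ddit3, which encodes the transcription factor CHOP, had 145, 152 and 150 FPKM in Ctrl, 125, 132 and 126 FPKM in IgE/DNP, and 80.6, 89.5 and 85.3 FPKM in PF. Again no group overlapped another. The fall with antigen was 14.4% of the mean, a log2 fold change of -0.22 ± 0.0357 (adjusted p = 3.00e-03, limma). The fall from IgE/DNP to PF was 33.2%, a log2 fold change of -0.58 ± 0.0437 (adjusted p = 1.22e-05, limma).

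Atf4 itself was the most abundant transcription factor of the 37 genes in FPKM, which is per length. It had 754, 751 and 750 FPKM in Ctrl, 725, 687 and 697 FPKM in IgE/DNP, and 677, 719 and 634 FPKM in PF. All 6 antigen-treated libraries lay under the 3 Ctrl libraries, while IgE/DNP and PF overlapped. Neither IgE/DNP over Ctrl, at -0.10 ± 0.0326 (adjusted p = 0.0557, limma), nor PF over IgE/DNP, at -0.0563 (adjusted p = 0.356, limma), passed the test. With scaling to the mean sum the second was -0.16 (adjusted p = 8.59e-03, limma) and passed, and with median ratio scaling it was 0.0045. PF over Ctrl was -0.15 (adjusted p = 0.0241, limma) and passed. That call was lost when Ctrl replicate 1 or 2 or PF replicate 1 or 3 was left out (-0.15 to -0.11). Median ratio scaling gave -0.0836 (adjusted p = 0.201, limma), which did not pass. Scaling to the mean sum gave -0.23 (adjusted p = 1.15e-03, limma), which passed. Atf5, a related factor, lay between 5.19 and 7.27 FPKM in the 9 libraries and passed in no comparison.

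Among the amino acid genes, the asparagine synthetase Asns fell by 0.26 on the log2 scale from Ctrl to IgE/DNP (285 to 238 FPKM in the mean). The shared transporter subunit Slc3a2 fell by 0.32 (358 to 288 FPKM) and its partner Slc7a5, with which it imports leucine, by 0.19 (121 to 106 FPKM). The serine and one-carbon enzymes Psat1, Phgdh, Psph, Shmt2 and Mthfd2 did not pass, with log2 fold changes of -0.0917 to -0.0153, although Shmt2 passed without Ctrl replicate 3 (-0.11). The arginine and lysine transporter Slc7a1 was the single higher gene of the group, at 0.12 (adjusted p = 0.029, limma), and this call was lost when any library other than Ctrl replicate 1 was left out, with values of 0.11 to 0.13.

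All 5 sensors and regulators passed in this comparison, where 29.2% of all genes did. Of the 5, 3 were higher and 2 lower, against 14.7% and 14.4% of all genes. Ern1 rose from 21.8 to 29.0 FPKM in the mean, a log2 fold change of 0.40. Atf6 was at 0.24, Eif2ak4 at 0.24, the PERK gene Eif2ak3 at -0.13, and Ppp1r15b, the constitutive subunit of the phosphatase that reverses eIF2alpha phosphorylation, at -0.17. Of these calls, that of Ern1 alone held when any library was left out. Atf6 was lost without Ctrl replicate 2 or IgE/DNP replicate 2 (0.20 to 0.22), Ppp1r15b without IgE/DNP replicate 1 (-0.16), Eif2ak3 without any library but IgE/DNP replicate 1 (-0.14 to -0.11), and Eif2ak4 without any but IgE/DNP replicate 3 (0.17 to 0.25).

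**Figure D2:**
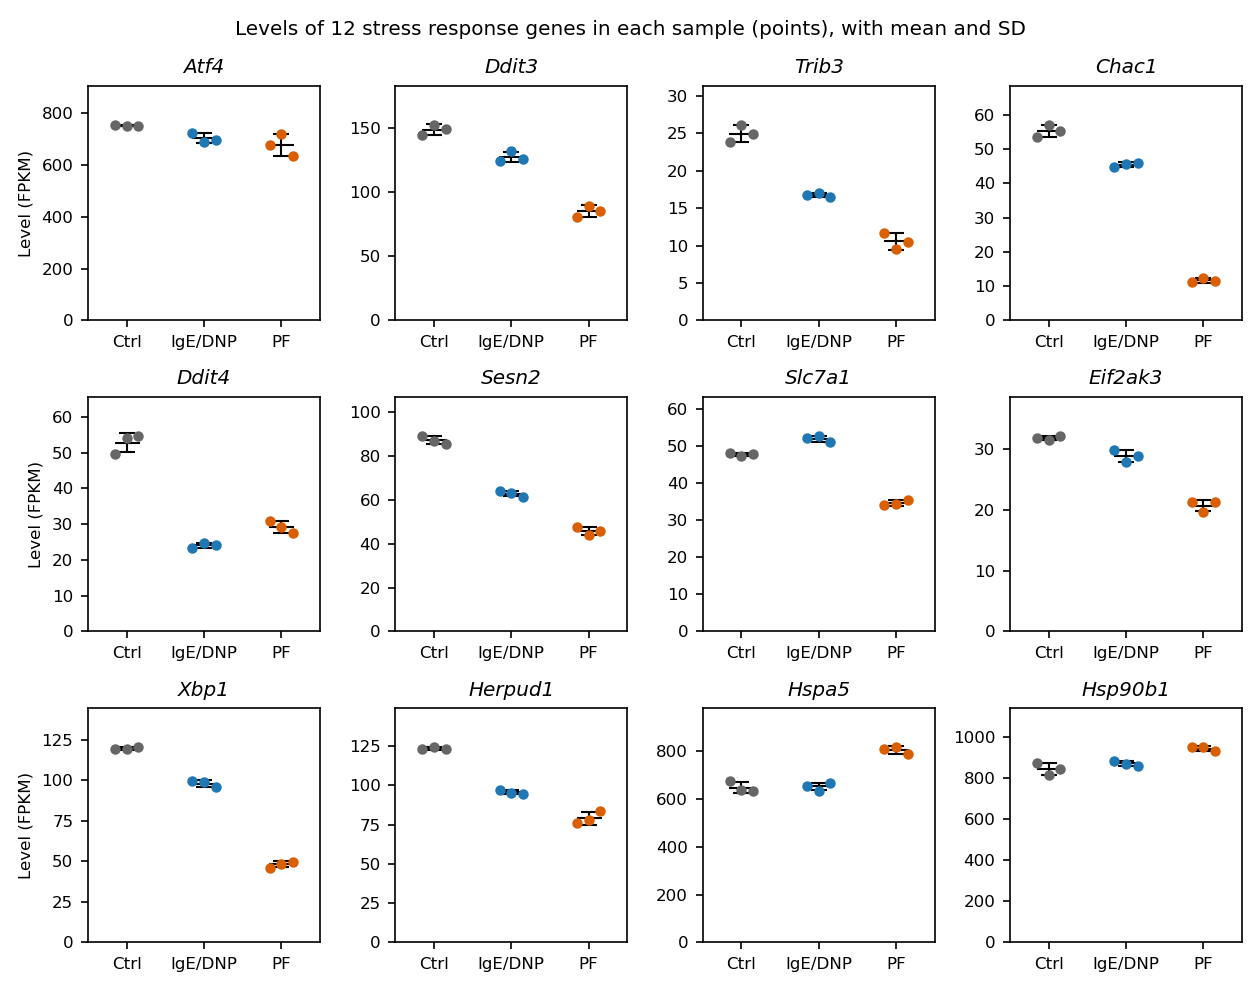
FPKM (y axis, from 0) of 12 genes in the 3 groups, with a point for each library and a bar for the mean ± SD (n = 3). Chac1 and Xbp1 are lowest in PF with no overlap, Ddit4 is lowest in IgE/DNP, and Hspa5 is highest in PF.

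The second comparison asks which of these genes differed between antigen with and without PF. In PF against IgE/DNP, 25 of 37 genes passed (limma), which is 67.6% against 48.8% of all 10329 genes tested. Of the 37, 18 were lower, where 30.7% of all genes were lower, and 7 were higher, where 18.1% were. In the ATF4 group 11 of 17 were lower and 3 higher, and in the XBP1 group 3 of 15 were lower and 4 higher. Median log2 fold changes were -0.14 in the ATF4 group, 0.059 in the XBP1 group and -0.038 over all genes. These splits depend on scaling. With median ratio scaling 10 genes were higher and 14 lower, and when every library was brought to the mean sum 2 were higher and 21 lower. Relative to the median of all genes, the ATF4 group stood at -0.10, -0.093 and -0.10 under the deposited values and these scalings, in that order. The XBP1 group stood at 0.10, 0.10 and 0.090. No set of genes of like abundance was compared. The 10 highest genes held 7.43 to 7.67% of the summed FPKM in PF and 6.85 to 6.89% in IgE/DNP. Whether abundant genes in general were higher in PF was not tested.

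Chac1, a target of ATF4 and CHOP that degrades glutathione, had the largest difference of the 37. Its libraries stood at 53.6, 57.1 and 55.3 FPKM in Ctrl, 44.8, 45.7 and 46.1 FPKM in IgE/DNP, and 11.2, 12.5 and 11.4 FPKM in PF. The PF libraries lay far under the other 6, and Ctrl and IgE/DNP did not overlap either. The mean of IgE/DNP was 3.88 times that of PF, a log2 fold change of -1.87 ± 0.0487 for PF over IgE/DNP (adjusted p = 6.02e-08, limma), the 21st lowest of the 10329 genes. For IgE/DNP over Ctrl it was -0.28 ± 0.0368 (adjusted p = 1.27e-03, limma). With PF replicate 1 alone, the PF library given 4 h in both label fields, PF over IgE/DNP was -1.93 in Chac1, -1.07 in Xbp1, -0.48 in Trib3 and 0.31 in Hspa5. The Chac1 promoter holds a CARE match printed above, as do those of Trib3 and Slc7a1.

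Slc7a1 had 48.2, 47.3 and 47.7 FPKM in Ctrl, 52.0, 52.6 and 51.0 FPKM in IgE/DNP, and 34.2, 34.2 and 35.4 FPKM in PF. PF was the lowest group, with no overlap, and its log2 fold change over IgE/DNP was -0.57 ± 0.0354 (adjusted p = 3.87e-06, limma). Slc7a5 fell by 0.30 in the same comparison, while Slc3a2 had -0.0561 and did not pass. Slc3a2 was at 0.0046 with median ratio scaling and passed at -0.15 with scaling to the mean sum. The means of the 3 genes in Ctrl, IgE/DNP and PF were 358, 288 and 277 FPKM for Slc3a2, 121, 106 and 86.4 FPKM for Slc7a5, and 47.7, 51.9 and 34.6 FPKM for Slc7a1.

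The one-carbon enzymes of mitochondria fell alike, Shmt2 by 0.19 (222 to 195 FPKM) and Mthfd2 by 0.19 (149 to 130 FPKM). Serine synthesis was split in smaller steps, with Psph at -0.14 and Psat1 at -0.10 among the lower genes and Phgdh, which starts the pathway, at 0.10 among the higher. The Psat1 call was lost without IgE/DNP replicate 2 (-0.10). The Phgdh call was lost without IgE/DNP replicate 2 or 3 or PF replicate 1 or 2 (0.0878 to 0.10). Asns was at -0.11, a call lost without any library but IgE/DNP replicate 3 (-0.13 to -0.0726). With median ratio scaling Asns, Psat1 and Psph no longer passed, and with scaling to the mean sum Phgdh did not. Ppp1r15a, the inducible partner of the eIF2alpha phosphatase, was higher at 0.21, with 68.5, 71.3 and 62.7 FPKM in Ctrl, 65.7, 60.3 and 63.9 FPKM in IgE/DNP, and 77.2, 71.6 and 71.8 FPKM in PF. The highest Ctrl value lay just under the lowest PF value. Its call was lost with scaling to the mean sum (0.12).

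Xbp1 was lower in PF than in IgE/DNP while the ER folding genes that passed, which hold the same ERSE except Pdia4, were higher. Xbp1 had 119, 119 and 120 FPKM in Ctrl, 99.5, 98.7 and 95.7 FPKM in IgE/DNP, and 46.2, 48.5 and 49.9 FPKM in PF. The PF libraries were the lowest and no groups overlapped. The mean fell by 50.8% from IgE/DNP to PF, a log2 fold change of -1.01 ± 0.0383 (adjusted p = 3.96e-07, limma), after a fall of 18.1% with antigen, or -0.29 ± 0.0307 (adjusted p = 5.02e-04, limma).

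Hspa5, which encodes the main ER chaperone BiP and is a standard readout of ATF6 activity, had 675, 637 and 634 FPKM in Ctrl, 657, 635 and 667 FPKM in IgE/DNP, and 811, 818 and 788 FPKM in PF. The PF libraries stood above the other 6, which overlapped each other. Its log2 fold change was 0.30 ± 0.0328 for PF over IgE/DNP (adjusted p = 1.01e-04, limma) and 0.01 for IgE/DNP over Ctrl (adjusted p = 0.864, limma). The PF over IgE/DNP value was 0.36 with median ratio scaling and 0.20 with scaling to the mean sum, and passed in both.

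Of the 11 ER folding genes, 4 were higher in PF than in IgE/DNP and 0 lower, or 36.4% passing against 48.8% of all genes and 18.1% of all genes higher. The 4 were Hspa5, the lumenal chaperone Hsp90b1 (870 to 941 FPKM, 0.11), the co-chaperone and PERK-pathway inhibitor Dnajc3 (79.9 to 87.6 FPKM, 0.13) and the disulfide isomerase Pdia4 (237 to 257 FPKM, 0.12). Dnajc3 was lost without IgE/DNP replicate 1 or 2 or PF replicate 1 (0.10 to 0.13) and Pdia4 without IgE/DNP replicate 2 or PF replicate 1 (0.10). Median ratio scaling gave 7 higher and 0 lower, whereas scaling to the mean sum gave 1 higher, Hspa5, and 1 lower, Dnajb9 at -0.18. The lectin chaperones Calr and Canx, the isomerase Pdia6, and Creld2, Manf and Sdf2l1 had log2 fold changes of 0.0564 to 0.13 and Dnajb9 had -0.0895, and these did not pass with the deposited values. Without PF replicate 3 Creld2 (0.21) and Sdf2l1 (0.14) passed, and without IgE/DNP replicate 2 Dnajb9 (-0.16) did. Calr was the most abundant of the 37 genes in FPKM, which is per length, with means of 1549 in Ctrl, 1577 in IgE/DNP and 1648 in PF.

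Of the 3 genes of ER-associated degradation, 2 were lower in PF than in IgE/DNP, where 30.7% of all genes were lower, and 0 higher. Herpud1, an ER membrane protein that scaffolds the degradation complex, had 123, 124 and 123 FPKM in Ctrl, 97.2, 95.4 and 94.4 FPKM in IgE/DNP, and 76.0, 77.7 and 83.9 FPKM in PF. Its 3 groups stepped down without overlap. The log2 fold changes were -0.37 ± 0.0295 with antigen (adjusted p = 1.39e-04, limma) and -0.27 ± 0.0415 from IgE/DNP to PF (adjusted p = 7.46e-04, limma). Sel1l, the partner of the ubiquitin ligase HRD1, was at -0.0797 with antigen and did not pass, and fell by 0.28 from IgE/DNP to PF. Edem1, which marks misfolded glycoproteins, passed in neither.

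Eif2ak3 had 31.9, 31.5 and 32.2 FPKM in Ctrl, 30.0, 28.0 and 28.9 FPKM in IgE/DNP, and 21.3, 19.6 and 21.3 FPKM in PF. PF was the lowest group, with no overlap, and its log2 fold change over IgE/DNP was -0.46 ± 0.0483 (adjusted p = 8.07e-05, limma). Atf6 fell by 0.42 from IgE/DNP to PF, after the value of 0.24 with antigen, and its means were 64.0, 76.0 and 56.5 FPKM in Ctrl, IgE/DNP and PF. Ppp1r15b fell by 0.21, and Eif2ak4, at 0.0463, did not pass. Ern1 was at -0.15, a call that was lost without IgE/DNP replicate 1 or 2 or PF replicate 2 (-0.15 to -0.11) and with median ratio scaling.

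**Figure D3:**
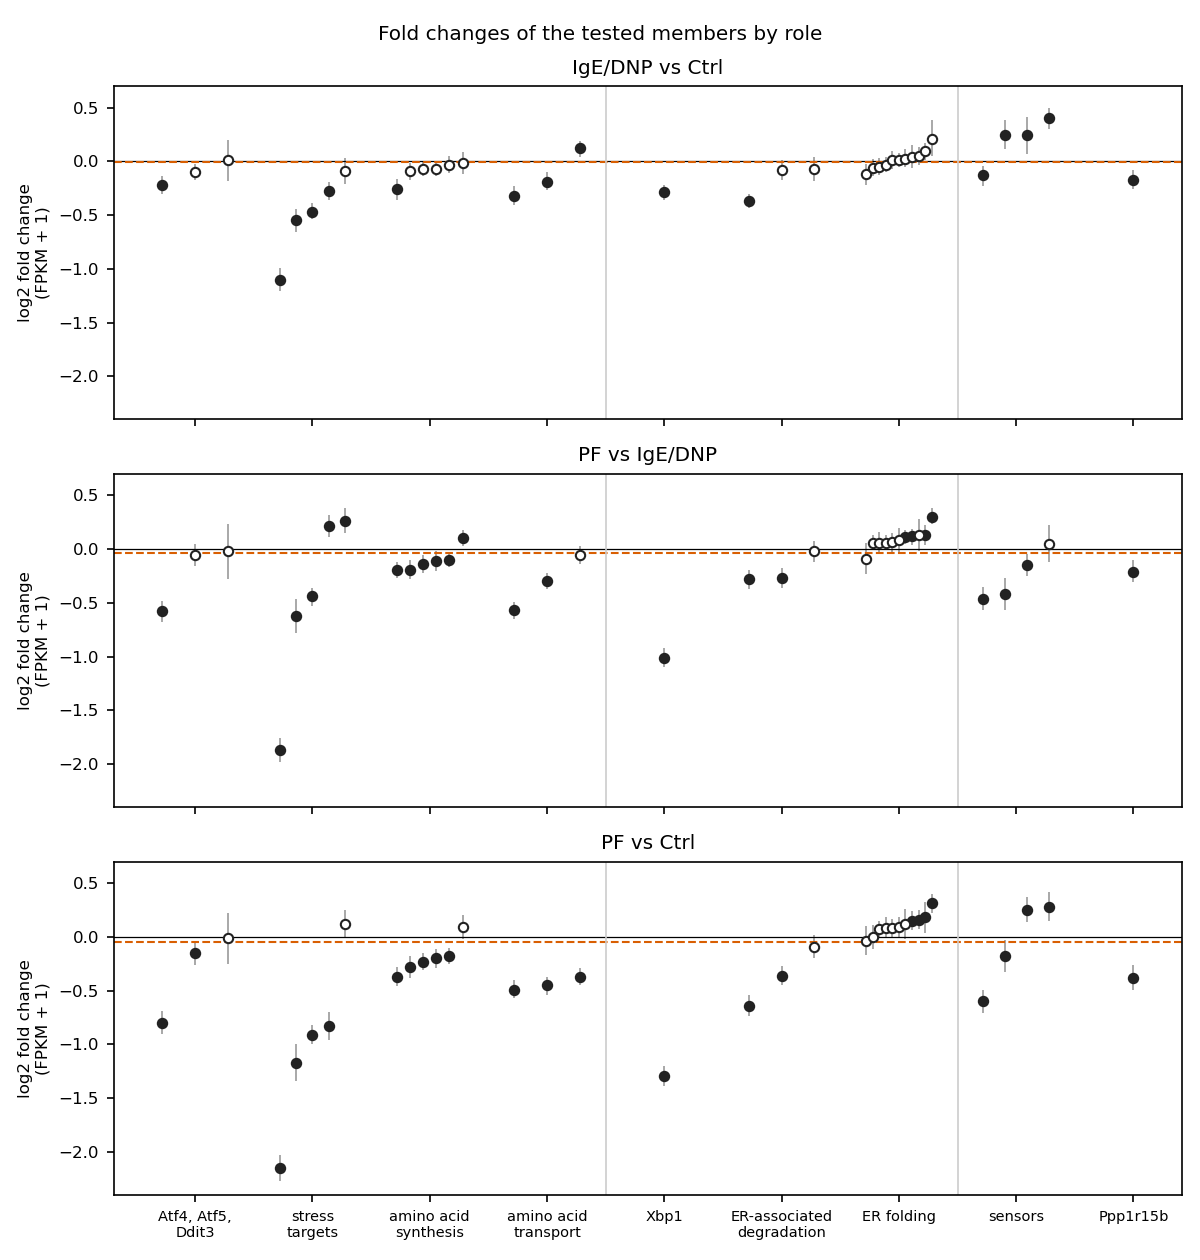
Log2 fold change on the log2(FPKM + 1) scale (y axis) of the 37 genes by role (x axis), in a panel for each comparison, with grey bars for the 95% confidence interval, filled points for genes that passed and white points for those that did not. The dashed line is the median of all genes tested, and in the panel of PF over IgE/DNP 10 of the 11 folding genes lie above it while Xbp1 and most ATF4 genes lie below it.

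The third comparison sets PF against Ctrl and shares its libraries with both others, so its values are not separate support. In it 26 of 37 genes passed (limma), or 70.3% against 57.7% of the 10361 genes tested. There were 20 lower genes, where 34.6% of all genes were lower, and 6 higher, where 23.1% were. All 14 genes of the ATF4 group that passed were lower, with Atf5, Phgdh and Ppp1r15a not passing. Without Ctrl replicate 2, Phgdh (0.14) and Ppp1r15a (0.16) passed as higher. The XBP1 group again had 4 higher and 3 lower of 15, the higher ones being Hspa5 (0.31), Hsp90b1 (0.16), Canx (0.15) and Creld2 (0.18). Median ratio scaling gave 13 higher and 18 lower of the 37, and scaling to the mean sum 3 higher and 21 lower, where Hsp90b1, Canx and Creld2 no longer passed. Creld2 was also lost without Ctrl replicate 1 or 3 or PF replicate 1 or 2 (0.13 to 0.17). Dnajb9 (0.18) passed without Ctrl replicate 1, and Pdia4 (0.11) and Calr (0.12) passed without PF replicate 3. The median of the ATF4 group was -0.37 and that of the XBP1 group 0.081, against -0.047 for all genes.

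Side by side, the log2 fold changes over Ctrl were, for IgE/DNP and then PF, -0.28 and -2.15 in Chac1, -0.29 and -1.29 in Xbp1, and -0.55 and -1.17 in Trib3. The PF over Ctrl value of Chac1 was the 3rd lowest of all genes tested. They were -0.47 and -0.91 in Sesn2, -0.22 and -0.80 in Ddit3, -0.37 and -0.64 in Herpud1, and -0.13 and -0.60 in Eif2ak3. Among the genes that fell by 0.5 or more in PF over Ctrl, Ddit4 was the exception to this order, at -1.10 and -0.83. In the ATF4 group Ppp1r15a, at -0.0903 and 0.12, and Phgdh, at -0.0153 and 0.0884, also had the higher value in PF. With the deposited values of all libraries these 2 genes did not pass over Ctrl. Both values of Ern1 were positive, at 0.40 and 0.25, as were those of Eif2ak4, at 0.24 and 0.28. Atf6 had 0.24 and -0.18, the second of which was lost without any library but PF replicate 3 (-0.21 to -0.11).

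Of the 37 genes, those that passed with a log2 fold change of 0.5 or more in size were lower. There were 2 in IgE/DNP over Ctrl, Ddit4 and Trib3, where 1.33% of all genes qualified as lower. There were 5 in PF over IgE/DNP, Chac1, Xbp1, Trib3, Ddit3 and Slc7a1, against 10.7%, and 8 in PF over Ctrl, Chac1, Xbp1, Trib3, Sesn2, Ddit4, Ddit3, Herpud1 and Eif2ak3, against 14.0%. For higher genes of that size the count was 0 in each comparison, where 2.39%, 1.52% and 3.84% of all genes qualified. The groups did not overlap in 24, 27 and 30 of the 37 genes in the 3 comparisons, against 45.8%, 57.6% and 64.8% of all genes tested. For a single gene with 3 libraries against 3, the exact two-sided permutation test cannot give a p-value under 0.1.

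Set beside the promoter elements, the 5 tested genes with CARE (Chac1, Trib3, Slc7a1, Herpud1 and Ppp1r15b) were all lower in PF than in IgE/DNP, where 30.7% of all genes were lower. These 5 come from genes chosen with earlier results of these data known. With or without the element, 11 of 17 genes of the ATF4 group were lower. The 983 genes that hold CARE among the 27457 searched were not compared. Whether the element goes with the direction was therefore not tested. In IgE/DNP over Ctrl 4 of the 5 genes with CARE were lower, where 14.4% of all genes were lower. Slc7a1 was higher, where 14.7% of all genes were. The Slc7a1 call was lost without any library but Ctrl replicate 1, and the Ppp1r15b call without IgE/DNP replicate 1. Of the 7 genes with ERSE, Xbp1 was at -1.01 in PF over IgE/DNP. The other 6 had log2 fold changes of 0.0564 to 0.30, of which Hspa5, Hsp90b1 and Dnajc3 passed. With scaling to the mean sum Canx (-0.0424) and Calr (-0.0365) turned below 0, Hsp90b1 (0.0156) and Dnajc3 (0.0319) no longer passed, and Hspa5 did. Several genes with no match to these elements in the window searched also passed in PF over IgE/DNP. Asns, Ddit3, Sesn2 and Ddit4 are examples, with log2 fold changes of -0.58 to 0.26. The Asns call was lost without any library but IgE/DNP replicate 3.

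**Figure D4:**
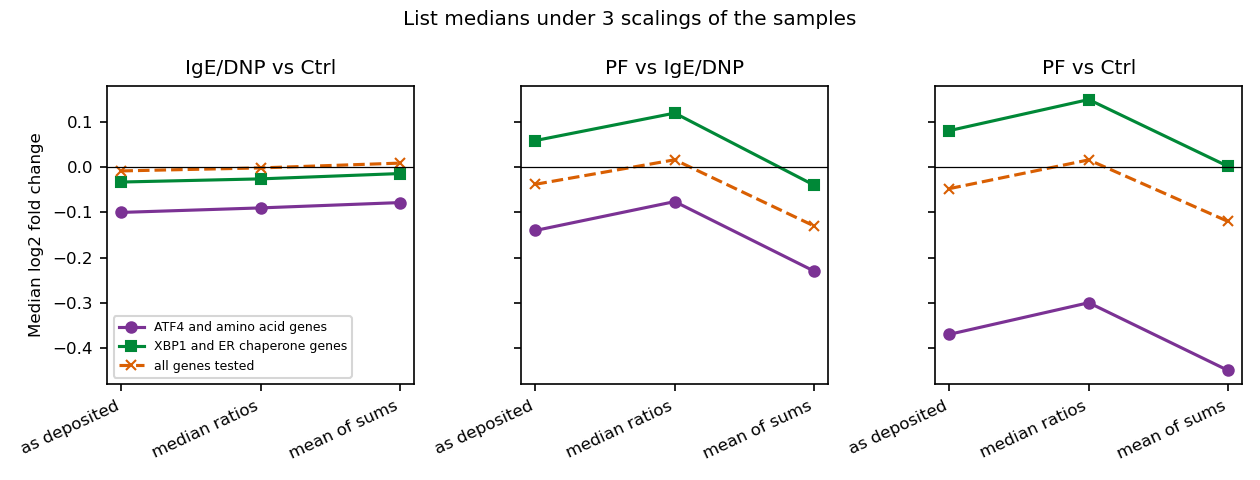
Median log2 fold change (y axis) of the ATF4 group, the XBP1 group and all genes tested, in a panel for each comparison, with the deposited values, median ratio scaling and scaling to the mean sum (x axis). In both comparisons with PF the ATF4 group stays under the median of all genes and the XBP1 group above it.

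Further genes of the same pathways were taken from lists made for their known roles. These lists were chosen with earlier results of these data known, so they are not separate support. Of 43 other genes of the integrated stress response, 42 had values and 35 were tested. In these, 6 were higher and 11 lower in IgE/DNP over Ctrl, 6 and 12 in PF over IgE/DNP, and 7 and 17 in PF over Ctrl. Of 56 other genes of ER protein handling, 55 had values and were tested, with 9 higher and 9 lower, 16 and 4, and 22 and 9. The splits of both lists are from the deposited values alone, and the other scalings were not run for them. In PF over IgE/DNP the 11 ER folding genes moved from 4 higher and 0 lower to 1 and 1 with scaling to the mean sum. The shares that passed were 48.6%, 51.4% and 68.6% of the stress response genes and 32.7%, 36.4% and 56.4% of the ER genes, against 29.2%, 48.8% and 57.7% of all genes. Their medians were 0.0046, -0.052 and -0.10 for the stress response genes and -0.017, 0.054 and 0.024 for the ER genes, in the same order, against -0.0081, -0.038 and -0.047 over all genes.

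At the top of the stress response list with antigen stood Atf3, a transcription factor induced by many stimuli, at 1.65, followed by the bZIP repressor Nfil3 at 0.40. At its bottom were the cytokine Gdf15 at -0.89, the BH3-only protein gene Bbc3 at -0.51 and the neutral amino acid transporter Slc1a4 at -0.40. In PF over IgE/DNP, which shares the IgE/DNP libraries, Nfil3 stood at -0.89, Atf3 at -0.62 and Gdf15 at 0.42. The glycine transporter Slc6a9 stood at -0.44. In the ER list, PF over IgE/DNP was highest in the translocon subunits Sec61b and Sec61g, both at 0.31, and the signal peptidase subunit Spcs1, at 0.27. It was lowest in the degradation factor Derl3, at -0.80, the transcription factor Creb3l2, at -0.38, and the translocon component Sec62, at -0.24. Derl3 is a low gene, with means ± SD of 4.45 ± 1.21 FPKM in IgE/DNP and 2.12 ± 0.491 FPKM in PF, and an SE of 0.17. The cystine transporter Slc7a11, which supplies glutathione synthesis, was at -0.62 in PF over Ctrl, next to Slc1a4 at -0.75.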

How the data were processed

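Gene expression of 9 RBL-2H3 libraries was measured by RNA-seq. The authors deposited a gene-level value per library, taken here as FPKM from the study's methods and the values, since the column carries no unit name. Per the submitters' processing notes, HISAT2 2.0.4, Bowtie2 2.2.5, RSEM 1.2.12 and build rn6 were used. Strand handling is not given in the sources used here.

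The 9 lists were joined by gene ID. In each comparison genes at or above 1 FPKM in at least 3 libraries were tested on log2(FPKM + 1) with limma 3.58.1 (R 4.3.3), with mean-variance trend, 2 groups per fit, and Benjamini-Hochberg adjustment over all genes tested. The threshold was an adjusted p of 0.05. The script was tested on simulated data. Python 3.11.15 was used for the rest. Read counts were not analysed here, so depth enters only as the relative depth given. Alternatives were a pseudocount of 0.1, other filters and scalings, no trend, all 3 groups in a single fit, a threshold of 0.01, a replicate block, leaving out each library, and the 4 h PF library alone, which is assumed to vary like the other group.

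Values in every sample are given for genes that passed with a log2 fold change of at least 0.5 in size in any comparison, plus Atf4, Xbp1 and Hspa5, and for Ppp1r15a, chosen after its values were seen. Of the other pathway genes, names come from the 3 highest and 3 lowest that passed. The genes and lists were chosen with earlier results of these data known.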

Additional observations from a re-analysis of the deposited data

How the results depend on the processing

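Scaling moved the group medians of the comparisons with PF. In PF over IgE/DNP the XBP1 group median became -0.0396 with scaling to the mean sum, below 0, and 0.12 with median ratios, and the ATF4 median -0.23 and -0.076. In PF over Ctrl these were 0.002 and 0.15 for the XBP1 group and -0.45 and -0.30 for the ATF4 group, whose median was also -0.33 without a filter and -0.34 with the 4 h PF library alone. Leaving out each library gave medians of -0.14 to -0.0809 (ATF4) and -0.0435 to -0.0193 (XBP1) in IgE/DNP over Ctrl, -0.16 to -0.12 and 0.0454 to 0.0947 in PF over IgE/DNP, and -0.38 to -0.34 and 0.0637 to 0.10 in PF over Ctrl, with 12 to 16, 20 to 26 and 23 to 27 genes passing. The cause was not tested.

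With a replicate block 14, 25 and 26 genes passed, against 16, 25 and 26 without it. Deviations of same-numbered libraries correlated at -0.0822 to 0.189 across genes, so the numbers were not taken as pairs. Calls were kept in every alternative run for 11 of 16 genes in IgE/DNP over Ctrl, 16 of 25 in PF over IgE/DNP and 20 of 26 in PF over Ctrl. With 3 libraries a group, and values without counts, small differences in low genes such as Atf5 and Eif2ak4 are the least certain.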
